A study of Mus musculus with 26 samples.

Results

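Asah1, Degs1, Sgpl1 and Serinc1 are 4 genes of sphingolipid metabolism whose transcripts carried C-to-U editing sites in mouse macrophages. Every row with one of these symbols was taken from the deposited lists, which gave 9 of the 410 sites of the bulk list and 2 of the 171 sites of the single-cell list. All 4 genes were present in the bulk list, and Degs1 and Asah1 were also present in the single-cell list. The samples were 1 bulk library of Apobec1 -/- macrophages, 24 libraries of single wild-type macrophages and 1 bulk library of wild-type macrophages. All cells were grown from bone marrow of C57BL/6J mice aged 6 to 8 weeks in medium holding 20 ng per ml of M-CSF, the growth factor that drives macrophage maturation, and were collected on days 7 to 9 after checks for Cd11b and F4/80 by flow cytometry. The 24 single cells came from 1 mouse, so they describe that animal. The Apobec1 -/- cells lack the cytidine deaminase that performs this editing, and their library entered only as a filter, since a site was listed only if its C-to-T change was missing from the knockout reads. No editing value of the knockout is therefore given here. The labels do not say whether animals were pooled for the bulk libraries. With 1 library per genotype the bulk rates have no replicates, so the intervals below cover counting error only. No molecular identifier tells apart copies of a molecule, so this error is that of reads and not of molecules.

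Sphingolipids are membrane lipids built on a backbone made from serine and a fatty acid. Dihydroceramide desaturase, the product of Degs1, makes ceramide in the last step of synthesis, and acid ceramidase, the product of Asah1, splits ceramide to sphingosine in the lysosome. Sphingosine phosphate lyase, the product of Sgpl1, cleaves phosphorylated sphingosine irreversibly and so drains the pathway, whereas Serinc1 encodes a membrane protein of the serine incorporator family. Ceramide and sphingosine phosphate are known as signals in inflammation and cell survival, processes in which macrophages take part. APOBEC1 changes C to U in the transcript, and where the C lies in a 3′ untranslated region (UTR) the encoded protein keeps its sequence.

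All 9 sites fell in the 3′ UTR, both in the authors' annotation and in the GENCODE vM21 models of GRCm38, the build that mm10 names. This was common to the list, as 399 of the 410 bulk sites fell in a 3′ UTR in those models. Each gene lies on the minus strand, and each site lay in the last exon, which is exon 9 of 9 in Serinc1, 3 of 3 in Degs1, 15 of 15 in Sgpl1 and 14 of 14 in Asah1. Sites are named here by their distance in bases from the stop codon. Serinc1 carried site 1172 (chromosome 10, position 57515985), site 279 (57516878) and site 257 (57516900) in a UTR of 1383 bases. Degs1 carried site 342 (chromosome 1, position 182276405), site 337 (182276410) and site 179 (182276568) in a UTR of 975 bases. Sgpl1 carried site 2015 (chromosome 10, position 61098853) and site 512 (61100356) in a UTR of 2226 bases. Asah1 carried only site 753 (chromosome 8, position 41340843), in a UTR of 1399 bases. Sites 337 and 342 of Degs1 lie 5 bases apart and sites 257 and 279 of Serinc1 lie 22 bases apart, so that single reads can cover both members of each pair.

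**Figure D1:**
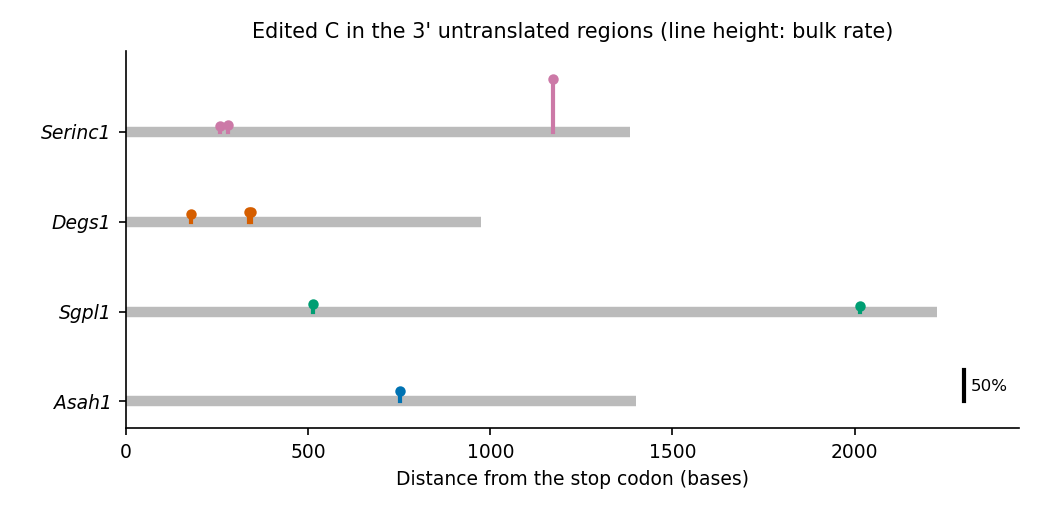
The 3′ UTR of each gene is drawn as a grey bar from the stop codon, with distance in bases on the horizontal axis, and each edited C as a line whose height is its bulk editing rate (scale bar, 50%). The Serinc1 site 1172 bases after the stop codon stands above all others at 83.9%.

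The surroundings of 6 sites are shown because they hold the contrast within the Serinc1 UTR, the pair of neighbouring Degs1 sites, the Degs1 site in the most GC-rich setting and the Asah1 site. Each line gives 30 bases of the sense strand, 5′ to 3′, from RefSeq's GRCm38.p6 sequence, and capitals mark every C that the bulk list holds.
Serinc1 site 1172, chr10:57515971-57516000, minus strand: gatatagtaaatcgaCtagaaaattagtat
Serinc1 site 279, chr10:57516864-57516893, minus strand: tattaaaactgaaaaCaaatattcttgaca
Serinc1 site 257, chr10:57516886-57516915, minus strand: catctgctttgtgtaCatatggtattaaaa
Degs1 sites 337 and 342, chr1:182276391-182276420, minus strand: acctaataaaCtgaaCtgttaatcatatat
Degs1 site 179, chr1:182276554-182276583, minus strand: gacgacgacgcttgaCgctagcggctgctg
Asah1 site 753, chr8:41340829-41340858, minus strand: ttttagattttcataCaatatagtattaat

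An A stood directly before the edited C at 9 of the 9 sites, against 357 of all 410 sites (87.1%). The base after the C was A or T at 8 of the 9, with a G only at Degs1 site 179, against 88.3% of all sites. The median A+T share of the 30 bases was 70.0% over the 9 sites and 66.7% over all sites. Asah1 site 753 had 86.7%, which no listed site exceeded, whereas Degs1 site 179 had 33.3%, with only 2 of the 410 sites lower. An A before the C was therefore common to sites whose wider surroundings differed in composition.

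The hexamer AATAAA, known as a signal for cleavage and polyadenylation, was found on the sense strand of the windows of Degs1 sites 337 and 342 and of 3.17% of all sites. It ended directly before the C of site 337, as at 2 of the 410 sites in all, and 5 bases before that of site 342. Site 337 lies 638 bases before the annotated UTR end, and the last of the 3 AATAAA in the Degs1 UTR begins 21 bases before the end. Neither ATTTA, the core of AU-rich elements, nor TGAT, which opens the mooring sequence downstream of the edited C in apolipoprotein B, occurred on the sense strand in any of the 9 windows. They occurred in 5.61% and 17.3% of all windows, and TGAT lay in the 14 bases after the C at 9.76% of all sites. These matches describe letters only.

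Few of the C in these UTRs were listed as edited. Of the C in the UTR, 3 of 196 were listed in Degs1 (1.53%), 3 of 214 in Serinc1 (1.40%), 2 of 532 in Sgpl1 (0.376%) and 1 of 278 in Asah1 (0.360%). A C after an A was much more frequent than a listed site, with 44 in Degs1, 69 in Serinc1, 107 in Sgpl1 and 79 in Asah1. Depth across the UTR was not analysed here, so an unlisted C may be unedited or too thinly covered. The same shares were not computed for the other genes of the list, so they cannot be called low or high beside it.

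Serinc1 site 1172 was edited in most reads of the bulk library, and no other site of the 4 genes exceeded 16.4%. At this site 52 of 62 reads were edited, a rate of 83.9% (exact Clopper-Pearson 95% interval 72.3% to 92%), the third highest rate of the 410 sites. Prkacb, which encodes a catalytic part of protein kinase A, ranked higher with 16 of 18 reads edited (88.9%). Cd36, a receptor for oxidised lipoproteins, did so with 58 of 69 reads (84.1%). These 3 sites were the only ones above 50%, and the order among them was not tested. The other Serinc1 sites had 3 edited reads each, of 28 at site 279 (10.7%, interval 2.27% to 28.2%) and of 30 at site 257 (10.0%, 2.11% to 26.5%). The strongly and weakly edited C of this transcript thus lay 893 and 915 bases apart in the same exon.

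Site 1172 differed from both of its neighbours by more than counting error. In Fisher's exact test on edited and unedited reads, two-sided and adjusted over the 318 same-gene pairs of the bulk list, it gave adjusted p = 2.53e-09 against site 279 and adjusted p = 9.95e-10 against site 257. Those 2 were the only calls among the 7 pairs within these genes, and 3.77% of all 318 pairs were called. The test compares reads of 1 library. It treats reads at both weakly edited sites as separate although they may be shared.

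Degs1, the desaturase gene, was edited at similar rates at its 3 sites. Site 342 had 6 edited reads of 37 (16.2%, interval 6.19% to 32.0%), site 337 had 6 of 39 (15.4%, 5.86% to 30.5%) and site 179 had 11 of 88 (12.5%, 6.41% to 21.3%). The depth of site 179 was exceeded at only 13 of the 410 sites. No Degs1 pair was called by Fisher's exact test, with an unadjusted p of 0.578 for sites 342 and 179 and 0.778 for sites 337 and 179. With these intervals, differences of several percentage points were not detectable at this depth.

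The lyase gene Sgpl1 had the lowest rate of the 9 sites. At site 2015, which lies 211 bases from the UTR end, 7 of 79 reads were edited (8.86%, interval 3.64% to 17.4%). At site 512, 1503 bases upstream, 3 of 26 reads were edited (11.5%, 2.45% to 30.2%). The 2 rates were not distinguishable by Fisher's exact test on reads (unadjusted p = 0.706, adjusted p = 1.00).

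Asah1, the lysosomal ceramidase gene, had its single site edited in 12 of 73 reads (16.4%, interval 8.79% to 27%). This was the second highest rate of the 9, and 68 of the 410 sites had a higher one. Site 2015 of Sgpl1 and site 1172 of Serinc1, each 211 bases from the UTR end, held the lowest and the highest rate of the 9. These distances are to the annotated UTR end, and a link between distance and rate was not tested.

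**Figure D2:**
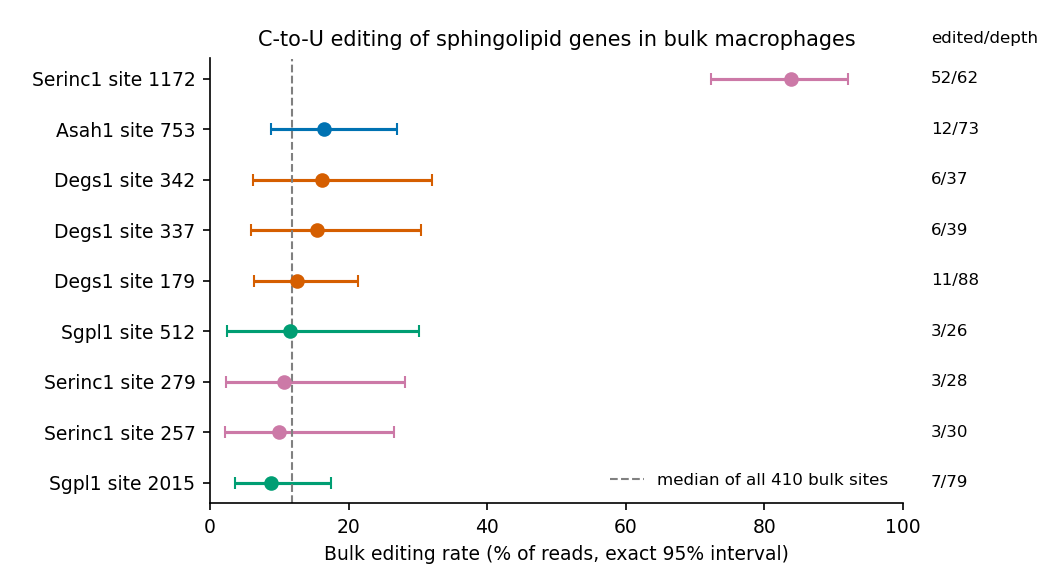
Points give the bulk editing rate of the 9 sites as a percentage of reads, with exact 95% intervals, edited reads over depth at the right and the median of all 410 bulk sites as a dashed line. The interval of Serinc1 site 1172 (72.3% to 92%) lies apart, and those of the other 8 sites overlap.

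In order of rate, Serinc1 site 1172 was followed by Asah1 site 753, Degs1 sites 342, 337 and 179, Sgpl1 site 512, Serinc1 sites 279 and 257, and Sgpl1 site 2015. Below the first, the intervals of all 8 sites share the span from 8.79% to 17.4%. Sites of different genes were not tested against each other, so the order among these 8 is one of observed rates only. Pooled over reads, these 8 sites were edited in 51 of 400 reads (12.8%), and all 9 in 103 of 462 (22.3%), so that 1 site supplied 52 of the 103 edited reads. These sums add up the depths of the sites, so a read over neighbouring sites can count at each. The median rate was 12.5% over the 9 sites and 11.8% over all 410, and the median depth was 39 and 30 reads.

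Each site was also set against the pooled reads of all other listed sites, where a read over neighbouring sites can count at each. Serinc1 site 1172 was called higher, at 83.9% against 14.9% (Fisher's exact test, two-sided, adjusted over 410 sites, adjusted p = 8.28e-31). In the whole list 1.95% of sites were called higher. The remaining 8 sites were not called (adjusted p = 1.00 each), and without adjustment none of them had p under 0.05, the lowest being 0.155 for Sgpl1 site 2015. No site of the whole list was called lower (0%), and the list itself keeps sites by rate, which leaves little room below.

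**Figure D3:**
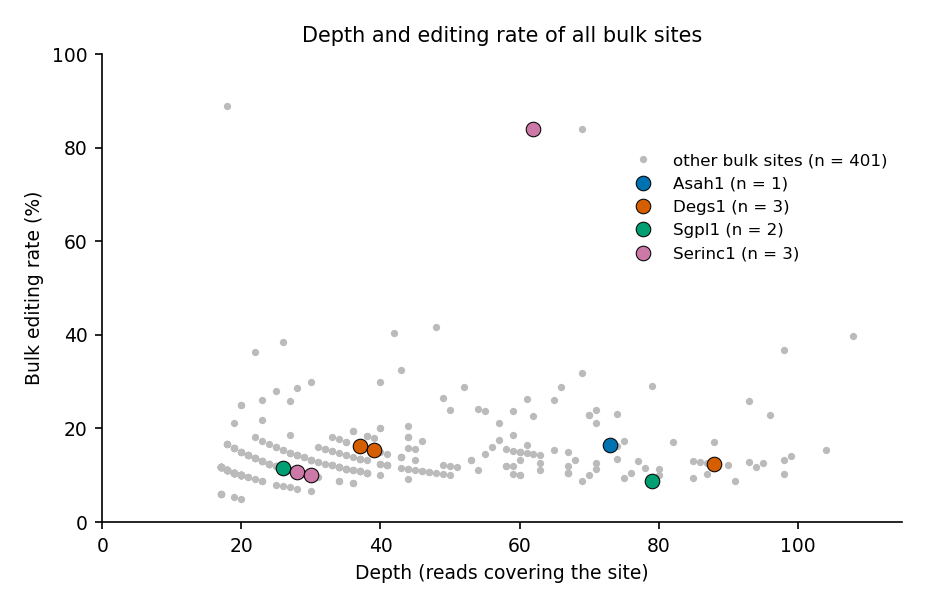
Each point is a site of the bulk list, with reads covering the site on the horizontal axis and the editing rate in percent on the vertical axis. Serinc1 site 1172 lies with the Cd36 site above 80% at over 60 reads, and the other 8 sites lie in the band below 20% that holds most of the list.

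A further 4 genes of the pathway carried listed sites. Of 74 genes on a list of sphingolipid synthesis, breakdown and transport, 73 had a symbol in the reference and 8 had a listed site. Of these 8, 4 are the genes described above, and none of the other 4 was in the single-cell list. The whole bulk list held sites in 275 genes. The share of all genes with a site was not computed, so 8 of 74 is a count only. Sptlc1, a subunit of serine palmitoyltransferase, the first enzyme of synthesis, was edited in 3 of 21 reads (14.3%, interval 3.05% to 36.3%). Sgpp1, a phosphatase that returns sphingosine phosphate to sphingosine, was edited in 2 of 17 reads (11.8%, 1.46% to 36.4%), and Gltp, a glycolipid transfer protein, in 8 of 71 (11.3%, 4.99% to 21.0%). Serinc3, a second serine incorporator, was edited in 3 of 30 reads (10.0%, 2.11% to 26.5%). No site was listed in the 10 genes of sphingomyelin turnover or the 16 of glycosphingolipid metabolism. A gene without a site may be unedited, weakly expressed or thinly covered, and expression was not analysed here. For the same reason the lists cannot check the cell type by its markers. Of 9 macrophage markers only Itgam had a row, in the single-cell list, and of 15 markers of dendritic cells, B cells, T cells and neutrophils none had one.

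For the single-cell measurement, wild-type macrophages were captured one by one on a C1 microfluidic chip, and the deposited list keeps sites edited in at least 3 of the 24 cells. It gives a rate for each cell without the number of reads, so the depth in a cell is unknown and no interval can be set on a cell's rate. Its columns carry no cell names, and cells are called here by the place of their column. An SD over cells holds both differences between cells and counting error.

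Degs1 site 342 had a rate of 0 in most covered cells and rates of 16.7% to 85.7% in the others. As the depth in a cell is unknown, a rate of 0 does not show that the site was unedited there. Cell 13 had a rate of 85.7%, cell 22 one of 70.0% and cell 3 one of 66.7%. Cells 6 and 7 had 50% each, cell 8 had 35.3% and cell 17 had 16.7%. A further 15 cells had a rate of 0, and cells 20 and 23 had no value. Editing was thus seen in 7 of 22 covered cells, 31.8% (exact 95% interval on cells 13.9% to 54.9%), at a mean of 53.5% among the edited cells.

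The mean over covered cells at Degs1 site 342 was 17.0% ± 28.3 (SD, n = 22 cells), and the median was 0. The bulk rate at the same C was 16.2%, so that the mean over cells lay 0.799 percentage points above it and within its interval. The sign of this difference rested on single cells, as the mean was 13.7% to 16.1%, under the bulk rate, when cell 3, 6, 7, 8, 13 or 22 was left out, and 15.6% when cells without a value counted as 0. Of the 22 cells, 6 lay above the bulk interval, 1 inside it and 15 below. Among the 171 listed sites, 3 had a larger SD over cells and 4 a higher mean among edited cells. The medians of these quantities over all sites were 14.4 percentage points and 26.3%. These ranks come with no test, since the reads behind each cell are unknown.

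Asah1 site 753 was covered in fewer cells and edited in the fewest that the list allows. Cell 4 had a rate of 50%, cell 9 one of 33.3% and cell 13 one of 25%. The other 12 covered cells had 0, and 9 cells had no value. Editing was therefore seen in 3 of 15 covered cells, 20.0% (exact 95% interval 4.33% to 48.1%), a share whose interval overlaps that of Degs1. Of the 171 sites, 13 were covered in fewer cells, and 36 including this one were edited in exactly 3.

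The mean over covered cells at Asah1 site 753 was 7.22% ± 15.7 (SD, n = 15 cells), against 16.4% in bulk, a difference, cells minus bulk, of -9.22 percentage points, and lay under the bulk interval of 8.79% to 27%. Without cell 4 the mean was 4.17%. The 9 cells without an Asah1 value were covered at 135 to 153 of the 171 listed sites (median 149), and the 15 cells with a value at 143 to 164. The bulk interval holds no error of the mean over cells, and the part of coverage in this difference was not tested.

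**Figure D4:**
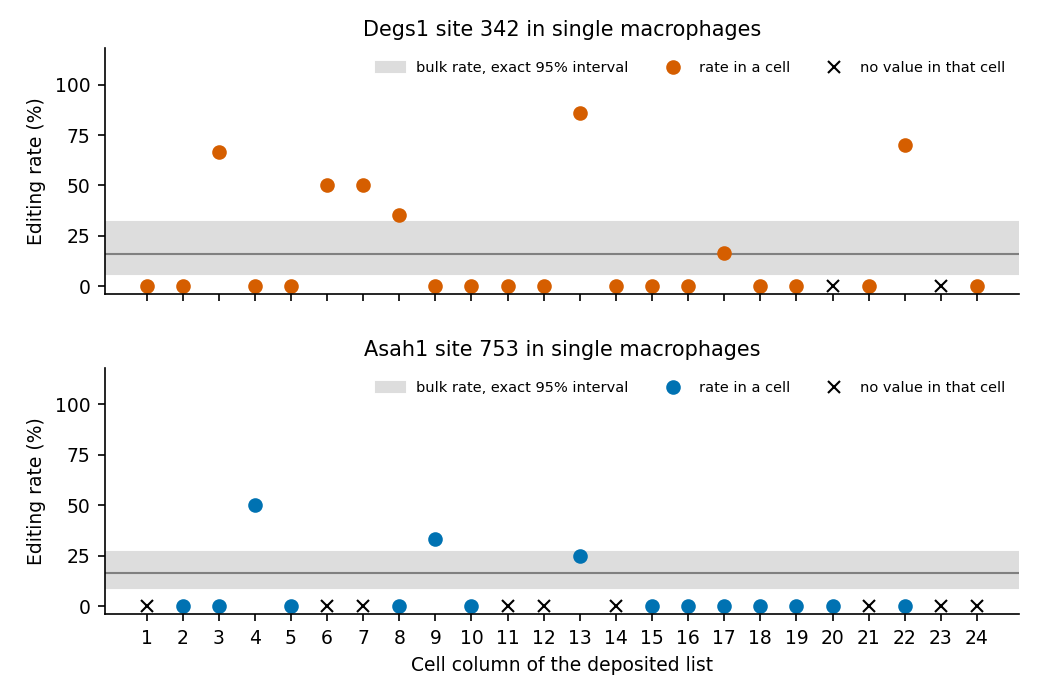
The editing rate in percent is plotted for each of the 24 cell columns at Degs1 site 342 (top) and Asah1 site 753 (bottom), with crosses for cells without a value and the bulk rate with its exact 95% interval as a line and grey band. At Degs1, 7 cells reach 16.7% to 85.7% and 15 lie at 0, and at Asah1 3 cells reach 25% to 50% and 12 lie at 0.

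Across the 55 sites held by both lists, the mean over cells exceeded the bulk rate at 4, of which Degs1 site 342 was one, and lay inside the bulk interval at 40 (72.7%). That interval holds no error of the mean over cells. The median difference, cells minus bulk, was -6.05 percentage points. The ratio of cell mean to bulk rate was 1.05 at Degs1, with the sign of its difference resting on single cells as above, and 0.439 at Asah1, against a median of 0.583. Sites entered the bulk list by their bulk rate, every cell has the same weight in a mean over cells, and the part of either in the differences was not tested.

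**Figure D5:**
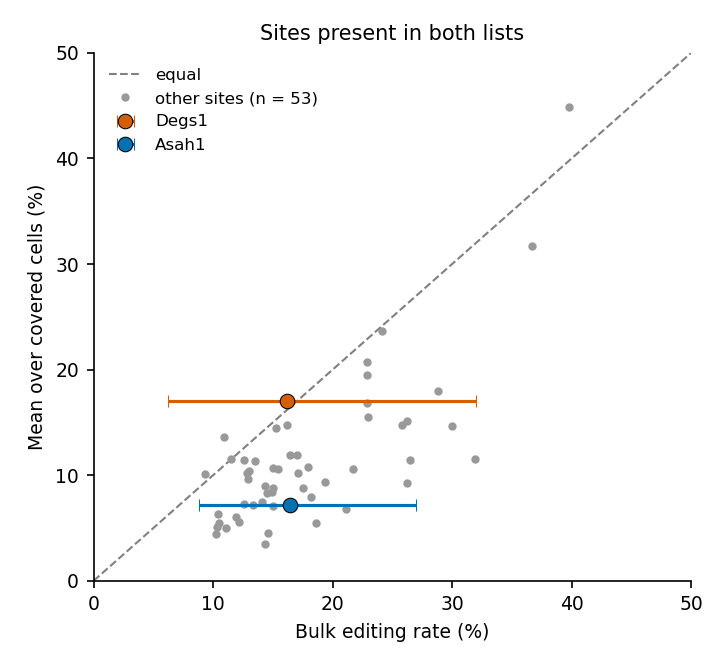
Each point is a site of both lists, with the mean over covered cells on the vertical axis and the bulk editing rate on the horizontal axis, both in percent, the exact 95% interval of the bulk rate for Degs1 and Asah1, and a dashed line of equality. Degs1 lies on the line (17.0% and 16.2%) and Asah1 below it (7.22% and 16.4%).

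Degs1 and Asah1 had 1 edited cell in common. Of 14 cells covered at both sites, cell 13 was edited at both, 4 at Degs1 only, 2 at Asah1 only and 7 at neither. Spearman's rho was 0.0107 over these 14 cells, a description of sparse values that share libraries and depth, and it ran from -0.277 without cell 13 to 0.184 when each cell was left out. The cells edited at Degs1 had 41 to 77 edited sites of the whole list (median 58.0) and the covered cells at 0 had 32 to 84 (median 52.0), so the 2 sets overlapped. At Asah1 the 3 edited cells had 34, 61 and 62 edited sites, within the 32 to 84 of all cells.

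The sites whose rates followed Degs1 site 342 most closely over cells were a row shared by the Ugt1a genes, enzymes that attach glucuronic acid (rho = 0.728 over 18 cells), a site of App, the amyloid precursor gene (0.537 over 22 cells), and one of Cd36 (0.493 over 16 cells), out of 156 sites compared with a median rho of 0.0401. For Asah1 they were a site of Atp6ap2, an accessory protein of the proton pump (0.566 over 14 cells), one of B2m, which encodes beta-2-microglobulin (0.562 over 15 cells), and one of Msn, which encodes moesin (0.534 over 15 cells), out of 120 sites. The Ugt1a row was edited in 3 of its 18 cells, all 3 edited at Degs1 too. With so few edited cells, these values are the upper end of many comparisons and carry no test.

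The other 7 bulk sites of the 4 genes had no row in the single-cell list. These included Serinc1 site 1172, with the highest rate, and Degs1 site 337, which lies 5 bases from site 342 and had nearly its depth and rate in bulk. Sgpl1 and Serinc1 had no row at any position. In the whole bulk list 55 of 410 sites (13.4%) had a row, against 2 of the 9 here (22.2%), and the share was 39.0% among the 41 sites above 20%. Of 17 sites above 20% with 60 or more reads, 11 had a row, and Serinc1 site 1172 was among the 6 that had none, as was the Cd36 site at 84.1%. None of the 3 sites above 50% had one. Of 201 sites under 30 reads, a group that holds Sgpl1 site 512 and Serinc1 site 279, 3 had a row. The list states a minimum of 3 edited cells, and any further filter is not given in the sources used here. The single-cell coverage of these C was not analysed here.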

How the data were processed

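RNA from 26 libraries of mouse bone marrow-derived macrophages was measured by sequencing. The authors used Trim Galore 0.2.5 for trimming and TopHat2 for alignment to mm10. They kept reads that mapped to 1 place and took out duplicates with Picard. Bulk sites were found from base counts in both genotypes, as vectors with a magnitude of 15 or more and an angle of 0.11 radians or more, and known variants, splice junctions and repeats were filtered out. Per the file headers, the bulk list gives a read count (depth, 17 to 108) and an editing rate as a fraction. In the single-cell list the deposited rate is also a fraction, and its depth per cell is unknown.

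Edited reads were computed as depth times rate, whole within 0.001 at 410 of 410 sites. Intervals are exact Clopper-Pearson 95% intervals. Fisher's exact tests, adjusted by Benjamini-Hochberg over the whole list, were tested on simulated data. Sequence came from GRCm38.p6 (RefSeq) and gene models from GENCODE vM21. Among coding transcripts with a 3′ UTR over a site, those of the listed gene came first, then those that GENCODE tags as basic. The longest 3′ UTR among these was used. Named were all rows of the 4 genes, listed genes of the pathway, bulk sites above 50%, and the 3 sites of highest Spearman's rho over at least 12 shared cells with at least 3 edited. The members and lists were chosen with earlier results of these data known. Alternatives varied depth, edited reads, pair distance, uncovered cells, mean or median, and each cell left out. Analyses used Python 3.11.15, NumPy 2.4.6, SciPy 1.17.1, pandas 2.3.3 and pysam 0.24.0, and matplotlib 3.10.9 for plots.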

Additional observations from a re-analysis of the deposited data

How the results depend on the processing

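The bulk rates kept their place within their intervals when 0.5 was added to the edited reads and 1 to the depth, with Serinc1 site 1172 at 83.3%. Of the 9 bulk sites, 7 had 30 or more reads and 9 had 3 or more edited reads. With pairs at least 100 bases apart, 7 in place of 12 pairs were called in the whole list, among them the same number in the 4 genes, 2. With both sites at 30 or more reads, 1 pair of the 4 genes was called, because Serinc1 site 279 with 28 reads was left out. The mean over cells ran from 13.7% to 17.8% at Degs1, falling under the bulk rate without cell 3, 6, 7, 8, 13 or 22, and from 4.17% to 7.74% at Asah1 when each cell was left out, lowest at Asah1 without cell 4, and rho between the genes from -0.277 (without cell 13) to 0.184. Counting cells without a value as 0 gave 15.6% and 4.51%, and turned the Degs1 difference from bulk to -0.619 percentage points. The median over cells gave -16.2 percentage points at Degs1 and -16.4 at Asah1. Depth limits the bulk rates, as the intervals show, and the unknown depth in single cells limits every value per cell. Libraries could not be paired, because each bulk genotype had 1 library and the cell columns carry no cell names. Sites were compared over the same cell columns, as for Degs1 and Asah1.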
